A study of Mus musculus with 36 samples.

Results

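Transcripts of microglia and of the macrophages at the borders of the brain were followed through the day in mice on 2 diets, normal chow and a high-fat diet. The genes were chosen by name, with earlier results of these data known: 33 genes that mark these cells, each found on 1 row in both deposited tables, of 24346 gene symbols on 24883 rows. RNA came from a region of the hypothalamus enriched for the suprachiasmatic nucleus (SCN), the site of the central circadian clock. The mice were adult C57BL/6J animals with no other allele or agent named in the labels. One set was kept for 10 weeks on normal chow and the other for 10 weeks on the high-fat diet. Each diet was sampled at 6 time points, numbered 0 to 20 in steps of 4 and given as zeitgeber time (ZT) in the column headers. Each of the 12 groups had 3 libraries, which makes 36 libraries, 18 per diet. Whether the 3 libraries of a group stem from different animals is not given in the labels, so the p-values measure the spread between samples, which may in part be technical. Each diet was deposited as a table of its own, and the making of the table and the diet cannot be told apart.

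Microglia are the resident macrophages of the brain parenchyma. They depend on the receptor CSF1R for survival and survey the tissue with processes guided by purine receptors. Border-associated macrophages live in the meninges, the perivascular spaces and the choroid plexus, carry scavenger receptors such as CD163 and CD206, and in part present antigen on MHC class II molecules. Both cell types take up debris into lysosomes, where cathepsins break proteins down, and a high-fat diet is known for its effects on microglia of the hypothalamus.

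Promoters are printed for H2-Aa, Ctss and Ctsd, since 1 stands for the genes that varied most between libraries, 1 for the gene with the smallest p-value between diets, and 1 for the most abundant and steadiest gene. RefSeq promoter windows on GRCm38.p6 matched 25 of the 33 genes. Each printed window runs 5′ to 3′ along the gene, from 250 bases before the annotated start to 30 bases after its first base. The H2-Aa window lies at chr17:34287794-34288073 on the minus strand, with 2 matches in capitals, the cAMP response element letters TGACGTCA and the CCAAT box read on the other strand, ATTGG. The Ctss window lies at chr3:95526536-95526815 on the plus strand, with the reverse complement of the PU.1 letters GAGGAAGT in capitals. The Ctsd window lies at chr7:142387798-142388077 on the minus strand, with the lysosomal gene element TCACGTGA in capitals.
H2-Aa: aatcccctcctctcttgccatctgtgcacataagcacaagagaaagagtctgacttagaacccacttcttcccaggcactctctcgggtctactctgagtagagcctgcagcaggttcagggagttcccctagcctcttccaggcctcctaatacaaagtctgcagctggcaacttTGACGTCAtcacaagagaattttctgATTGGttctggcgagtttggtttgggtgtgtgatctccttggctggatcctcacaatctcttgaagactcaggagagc
Ctss: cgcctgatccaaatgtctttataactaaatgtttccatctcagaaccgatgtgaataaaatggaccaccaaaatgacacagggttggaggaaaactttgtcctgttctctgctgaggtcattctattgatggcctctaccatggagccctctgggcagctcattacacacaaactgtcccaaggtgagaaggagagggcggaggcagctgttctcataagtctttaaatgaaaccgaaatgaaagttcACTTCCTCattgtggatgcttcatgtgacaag
Ctsd: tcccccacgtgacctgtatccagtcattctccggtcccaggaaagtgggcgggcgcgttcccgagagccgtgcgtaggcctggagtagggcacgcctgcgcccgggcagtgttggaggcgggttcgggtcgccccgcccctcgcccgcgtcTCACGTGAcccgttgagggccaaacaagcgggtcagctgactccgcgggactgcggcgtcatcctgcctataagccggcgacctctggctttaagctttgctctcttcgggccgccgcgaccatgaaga
Both strands of each full window were searched. In H2-Aa, TGACGTCA begins 74 bases before the start and ATTGG begins 48 bases before it. The Ctss match spans the start itself, from 2 bases before it to the 6th base of the transcript, and the Ctsd match begins 99 bases before the start. Among all 32851 windows, TGACGTCA was present in 1.79%, GAGGAAGT in 3.2%, TCACGTGA in 0.974% and ATTGG in 37.4%. Among the 25 matched genes, TGACGTCA was found only in H2-Aa, GAGGAAGT in Cd53, Ctss and Pf4, TCACGTGA in Ctsd and Siglech, and ATTGG in 14. These are matches of letters and show no binding.

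Values are fragments per kilobase of transcript scaled for library size (FPKM), rescaled so that each library sums to 1000000, and they can be compared between genes since they are per length. Deposited FPKM summed to 302899 to 432336 per library, and the number of reads is not stated. Transcripts of other tissue differed between libraries. Alb, the liver's albumin, exceeded 10 times its median in 3 libraries (normal chow ZT 0 replicate 1, normal chow ZT 4 replicate 1 and high-fat diet ZT 0 replicate 3). Adora2a, an adenosine receptor of the striatum, exceeded 10 times its median in 2 libraries (normal chow ZT 12 replicate 3 and high-fat diet ZT 16 replicate 3). The summed level of 8 fibroblast and meningeal transcripts ran from 73.3 to 259 under normal chow and from 69.2 to 452 under high-fat diet, none of them an immune gene. Some results that rest on these libraries are given with and without them, and others, such as those of single genes at ZT 12, only with them.

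All 33 genes had a value above 0 in every library, and the defining microglial receptors were well above the limit used for testing. Csf1r, the receptor for CSF1 and IL-34, had the highest mean of the 8 homeostatic surface receptors at 55.4, with a range of 38.8 to 83.5. Cx3cr1, the fractalkine receptor, averaged 29.8, P2ry12, the ADP receptor that steers microglial processes, 29.5, and Tmem119, a membrane protein used to tell microglia from other macrophages, 22.9. Tyrobp, the signalling adaptor of TREM2, led the immunoreceptor genes at 95, and Laptm5, a lysosomal membrane protein of blood and immune cells, led the leukocyte genes at 40.1. Ctsd, the aspartic protease cathepsin D that every cell type makes, was the most abundant gene of all 33 at 546, ahead of Ctss, the cysteine protease cathepsin S, at 140. Below these stood the border macrophage genes. Pf4, a chemokine, averaged 3.61, Mrc1, the mannose receptor CD206, 1.60, and Cd163, the receptor for haptoglobin-bound haemoglobin, 1.10. Lyve1, a hyaluronan receptor, averaged 0.559 and was the single gene under the mean of 1 required for testing, so 32 genes were tested. Tissue was sampled in bulk, so fewer cells of a type and less RNA per cell cannot be told apart in any result below.

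The genes differed widely in their spread between libraries. Ctsd was the steadiest, with 487 in the lowest library and 619 in the highest, a ratio of 1.27. For the 8 homeostatic receptors that ratio ran from 1.79 for Tmem119 to 2.71 for P2ry12. Cd74, the invariant chain that escorts MHC class II molecules, ran from 3.88 to 85.5, a ratio of 22.0. H2-Aa and H2-Ab1, the alpha and beta chains of the class II molecule I-A, ran from 2.47 to 51.7 and from 1.75 to 37.4. Lyz2, the lysozyme of macrophages and neutrophils, had a ratio of 6.02 and Pf4 of 18.3. The spread within groups followed the same order for most of these genes. The within-group SD on the log2(value + 1) scale was 0.591 to 0.662 for the 3 class II genes, 0.446 for Lyz2, 0.183 to 0.256 for the homeostatic receptors and 0.0661 for Ctsd. Low genes left this order, as the scale shrinks their spread. Lyve1 had a ratio of 11.2 and an SD of 0.192, and Cd163 a ratio of 6.78 and an SD of 0.265. Few libraries supplied the extremes: high-fat diet ZT 0 replicate 3 was the highest of all 36 for 10 genes, high-fat diet ZT 16 replicate 3 for 10 others, and high-fat diet ZT 8 replicate 2 for 7. That last library was also the lowest for 4 genes, and its deposited sum was the smallest of all at 302899. Normal chow ZT 4 replicate 2 was the lowest for 8 genes and normal chow ZT 16 replicate 2 for 6.

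**Figure D1:**
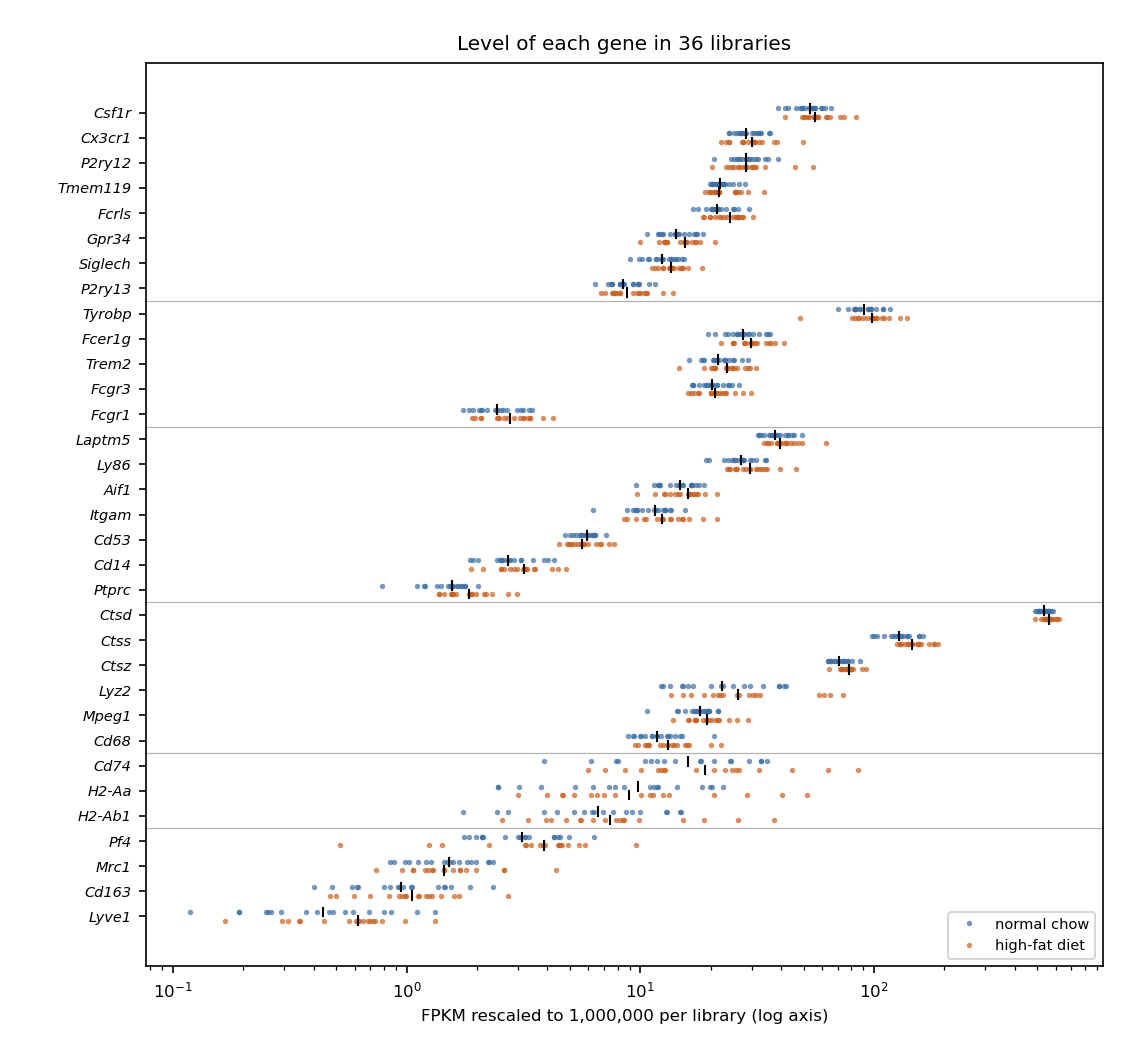
Level of each of the 33 genes (FPKM rescaled to 1000000 per library, log axis) in the 18 normal chow libraries (blue) and the 18 high-fat diet libraries (orange), with black ticks at the medians and grey lines between role groups. The points of Cd74, H2-Aa, H2-Ab1, Pf4 and Lyve1 spread over more than 10-fold, while those of Ctsd stay between 487 and 619.

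The comparison of diets over all time points asked whether these transcripts differ after 10 weeks of high-fat feeding. No gene of the 32 tested was called at an adjusted p under 0.05, in a limma test that called 0.0132% of all 15173 rows. At an unadjusted p under 0.05, 8 of 32 genes (25%) were higher under high-fat diet and 0 were lower, against 1.09% of all rows higher and 1.48% lower. The difference was positive for 31 of 32 genes, against 49.5% of all rows. The median difference was 0.12 on the log2(value + 1) scale, against -0.00051 over all rows. Genes read in 1 set of libraries are not independent of each other, and the list was chosen with earlier results of these data known. These counts thus describe the list and carry no p-value. The differences were small, from -0.01 for Cd53 to 0.32 for Lyz2, and the adjusted p of every one of the 32 genes was 1 after rounding.

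Among the lysosomal and phagocytic genes all 6 differences were positive, with a median of 0.14, and 3 had an unadjusted p under 0.05. Ctss, which cleaves the invariant chain during class II loading, ran from 98.1 through a median of 128 to 162 under normal chow. Under high-fat diet it ran from 126 through 145 to 189. Of the 18 high-fat diet libraries 17 lay above the normal chow median, though the ranges overlapped, and the high-fat mean was the higher at 6 of 6 time points. The means were 129 ± 18.7 (SD, n = 18) and 151 ± 19.2 (SD, n = 18), a log2 difference of 0.23 ± 0.068 (SE) with a limma p of 0.00182. Ctsz, the carboxypeptidase cathepsin Z, ran from 63.6 through 71.1 to 86.8 under normal chow and from 64.5 through 78.2 to 92.8 under high-fat diet. It too was higher on average at 6 of 6 time points and in 17 of 18 libraries against the normal chow median, by 0.12 ± 0.037 (limma p = 0.00391, n = 18 per diet). The change of scale matters for this gene: on the values as deposited the p was 0.0559. Ctsd ran from 487 through 532 to 582 and from 490 through 558 to 619, higher at 5 of 6 time points, by 0.07 ± 0.028 (limma p = 0.018, n = 18 per diet). Lyz2 had the largest difference of the 32 at 0.32 ± 0.17, and it was higher on average at only 3 of 6 time points (limma p = 0.0722, n = 18 per diet). Mpeg1, the pore-forming perforin-2, and Cd68, a lysosomal glycoprotein, had differences of 0.15 and 0.13 with p-values over 0.05.

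Among the leukocyte surface and cytoskeletal genes 6 of 7 differences were positive, with a median of 0.11. Ptprc, the phosphatase CD45 of all leukocytes, ran from 0.787 through 1.56 to 2.03 under normal chow and from 1.37 through 1.85 to 2.98 under high-fat diet. Its difference was 0.20 ± 0.067 (limma p = 0.0057, n = 18 per diet), and 14 of 18 high-fat diet libraries lay above the normal chow median. Its values are near the pseudocount of 1, which shrinks the difference: with a pseudocount of 0.1 it was 0.30. Itgam, the integrin chain CD11b, ran from 6.29 through 11.6 to 15.6 and from 8.54 through 12.4 to 21.3, a difference of 0.20 ± 0.093 (limma p = 0.0413, n = 18 per diet). Ly86, the partner of the receptor RP105 also called MD-1, ran from 19.1 through 27.1 to 34.4 and from 23.5 through 29.5 to 46.5, a difference of 0.17 ± 0.079 (limma p = 0.0433, n = 18 per diet). The diets overlapped for all 3 of these genes. Aif1, the actin-binding protein IBA1 that is stained to show microglia, had a difference of 0.07 ± 0.083 (limma p = 0.376, n = 18 per diet). Cd14, the co-receptor for lipopolysaccharide, had 0.11, Laptm5 0.10, and Cd53, a tetraspanin, -0.01 ± 0.052 (limma p = 0.832, n = 18 per diet).

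Among the homeostatic surface receptors all 8 differences were positive and small, with a median of 0.06. Csf1r ran from 38.8 through 53.5 to 65.4 under normal chow and from 41.5 through 56.0 to 83.5 under high-fat diet, a difference of 0.15 ± 0.071 (limma p = 0.0379, n = 18 per diet). Siglech, a sialic acid-binding lectin of microglia, ran from 9.05 through 12.4 to 15.4 and from 11.2 through 13.5 to 18.4, a difference of 0.14 ± 0.065 (limma p = 0.0393, n = 18 per diet). For both genes the high-fat mean was the higher at 5 of 6 time points, and the ranges overlapped. The other 6 receptors had p-values over 0.05, from Fcrls, a scavenger-like Fc receptor homologue, at 0.12 ± 0.064 down to P2ry12 at 0.02 ± 0.084. P2ry12 averaged 29.0 ± 4.27 (SD, n = 18) on chow against 29.99 ± 8.29 (SD, n = 18) on the high-fat diet.

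The other role groups had no gene at an unadjusted p under 0.05. Their differences were positive for 5 of 5 immunoreceptor and adaptor genes (median 0.09), 3 of 3 MHC class II genes (median 0.24) and 3 of 3 border macrophage genes tested (median 0.05). Tyrobp had 0.08 ± 0.085, Trem2, a lipid receptor, 0.09 ± 0.079, and Fcer1g, the signalling chain of the Fc receptors, 0.13 ± 0.075. Fcgr1 and Fcgr3, which bind IgG, had 0.13 and 0.04. Cd74 had 0.30 ± 0.23, whose error reflects the wide spread between libraries given above. Fits that leave out libraries with signal of other tissue changed the count of 8 genes at an unadjusted p under 0.05. It was 4 without the 3 libraries rich in Alb, 4 without the 2 libraries rich in Adora2a, and 3 on the values as deposited, while leaving out 1 library at a time gave 4 to 10. Csf1r, Siglech, Itgam and Ly86 are the least firm of the 8. Without normal chow ZT 16 replicate 2 their limma p-values were 0.0587 to 0.0785, and they were also over 0.05 for all 4 genes without high-fat diet ZT 0 replicate 3, ZT 8 replicate 2 or ZT 16 replicate 3. It was 4 without normal chow ZT 4, ZT 8 or ZT 16 replicate 2, or without high-fat diet ZT 0 replicate 3 or ZT 16 replicate 2 or 3, and 5 without normal chow ZT 0 replicate 1 or 3 or ZT 16 replicate 3, or without high-fat diet ZT 4 or ZT 12 replicate 3. Ctss had limma p-values of 0.000606 to 0.00562 over all alternatives run. Among them was 1 with the mean of the 8 homeostatic receptors as a covariate, where the log2 difference of Ctss was 0.16.

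**Figure D2:**
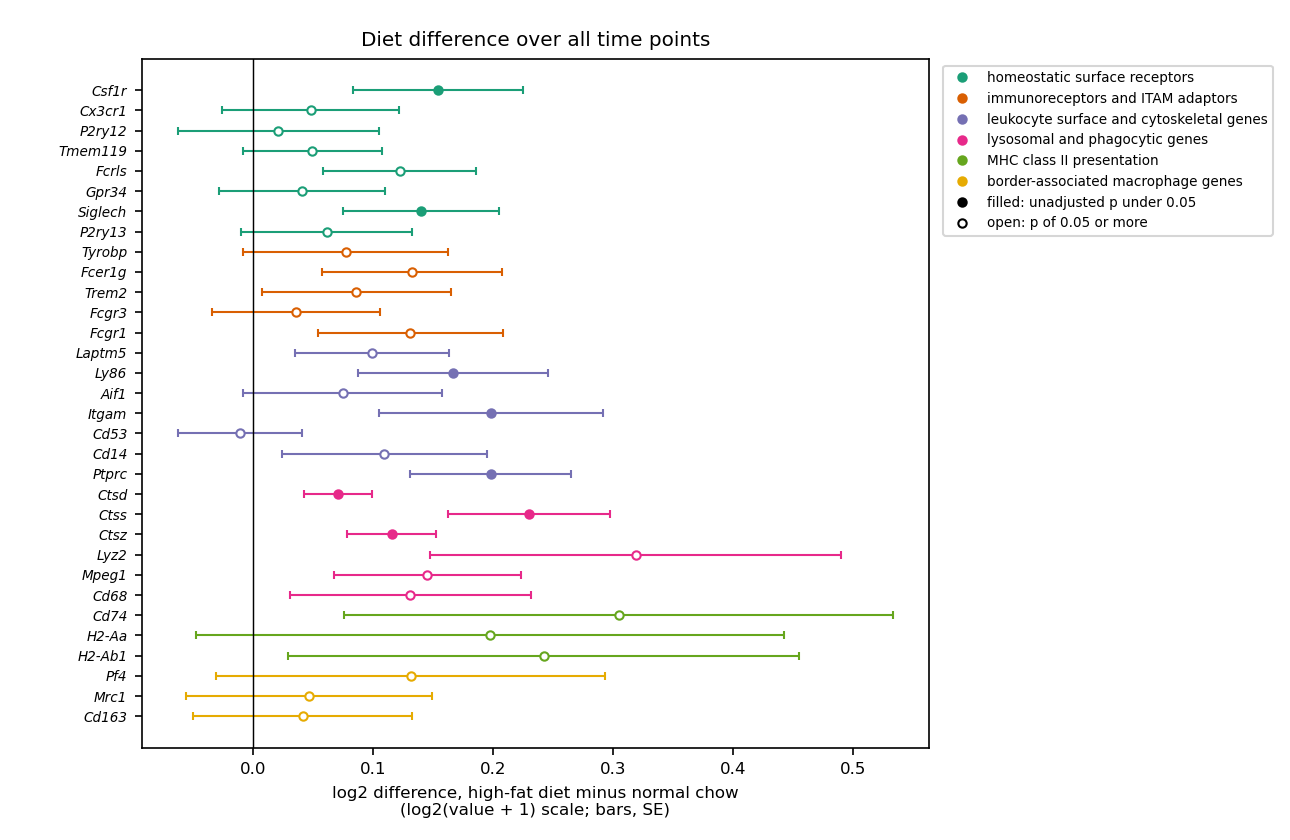
Diet difference over all time points (x axis, log2(value + 1) scale, high-fat diet minus normal chow) for the 32 genes tested, coloured by role, with bars of 1 SE and filled points for an unadjusted p under 0.05. All points but that of Cd53 lie right of 0, and the 8 filled points lie between 0.07 and 0.23.

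Other lists show how the same comparison looked for related genes and for other cells in the tissue. Of 14 other microglial genes tested, 14 differences were positive, with a median of 0.09. Olfml3, a secreted protein of microglia, averaged 24.6 ± 4.17 (SD, n = 18) and 29.8 ± 6.32 (SD, n = 18), a difference of 0.26 (limma p = 0.0039, n = 18 per diet). Cst3, the protease inhibitor cystatin C and the most abundant gene of that list, had 0.13 (limma p = 0.12, n = 18 per diet). Of 13 regulators and ligands tested out of 15 listed, 10 were positive, and Irf8, a transcription factor of microglia, had 0.12 (limma p = 0.0308, n = 18 per diet). Csf1 and Il34, the ligands of CSF1R, had 0.05 and 0.06, and Cx3cl1, the neuronal ligand of CX3CR1, 0.03. Of 16 genes of activated microglia 7 were abundant enough to test. Their most abundant member, Apoe, had 0.02, Spp1 0.44 (limma p = 0.103, n = 18 per diet), and the cytokine genes Tnf and Il1b were listed at 0 in 13 and 11 libraries. Of 14 lysosomal genes of all cells, 13 were positive with a median of 0.04.

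Markers of blood and vessels were also higher under high-fat diet. Of 11 genes of blood-borne leukocytes 4 could be tested and 4 were positive, with a median of 0.40. S100a8 and S100a9, proteins of neutrophils, had 0.68 (limma p = 0.0132, n = 18 per diet) and 0.61 (limma p = 0.0283, n = 18 per diet), and Ly6c2, a monocyte surface protein, 0.20 (limma p = 0.0186, n = 18 per diet). The summed level of the 11 genes was 11.1 to 47.2 under normal chow and 19.6 to 56.0 under high-fat diet, and 6 of the 11, among them the T cell genes Cd3e and Cd3g, were at 0 in some library. Ccr2, the chemokine receptor of monocytes, averaged 0.515. The 4 red blood cell genes were positive in 4 of 4, with a summed level of 650 to 4109 and of 691 to 3522, and Hba-a1 had 0.42 (limma p = 0.0382, n = 18 per diet). The 12 endothelial and mural genes were positive in 12 of 12 with a median of 0.10, and Pecam1, an endothelial adhesion molecule, had 0.26 (limma p = 0.00918, n = 18 per diet). The 8 meningeal and fibroblast genes were positive in 8 of 8 with a median of 0.19, the 8 astrocyte genes in 7 of 8, the 8 neuronal genes in 3 of 8 and the 8 oligodendrocyte genes in 1 of 8. No gene of these lists was called, and the part of blood or vessel cells in the differences of the microglial genes was not tested.

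The diets were then compared at each time point, with 3 libraries against 3. No gene of the 32 was called at any of the 6 times, where the tests called 0% of all rows at 5 of them and 0.00659% at ZT 12. Unadjusted p-values under 0.05 numbered 6 of 32 genes at ZT 0, against 3.9% of all rows, and 2 at ZT 4, against 1.5%. They numbered 4 at ZT 8, against 16.1% of all rows, 0 at ZT 12, against 0.975%, 5 at ZT 16, against 10.7%, and 1 at ZT 20, against 3.99%. Differences were positive for 26 of 32 genes at ZT 0 (47.1% of all rows), 29 at ZT 4 (63.9%) and 21 at ZT 8 (70.8%). They were positive for 12 at ZT 12 (41.2%), 24 at ZT 16 (44.6%) and 19 at ZT 20 (35.4%). The median difference of the 32 genes less that of all rows was 0.15 at ZT 0, 0.13 at ZT 4, 0.02 at ZT 8, -0.04 at ZT 12, 0.28 at ZT 16 and 0.15 at ZT 20. These medians moved with single libraries. The median of the 32 genes itself was 0.14 at ZT 0 and -0.0016 without high-fat diet ZT 0 replicate 3. It was 0.17 at ZT 4 (0.066 to 0.25 with 1 library left out, lowest without normal chow replicate 2), 0.13 at ZT 8 (0.018 to 0.28, lowest without normal chow replicate 2 and highest without normal chow replicate 3) and 0.25 at ZT 16 (0.14 to 0.35, lowest without high-fat diet replicate 3). At ZT 12 it was -0.066 (-0.17 to 0.013, with the sign turned without high-fat diet replicate 1) and at ZT 20 0.086 (0.013 to 0.14, lowest without high-fat diet replicate 3). At ZT 8 the rescaling itself set the median of all rows at 0.12, where it was -0.02 on the values as deposited, so values at ZT 8 are to be read against 0.12.

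At ZT 0 the MHC class II genes and Lyz2 were higher under high-fat diet. Lyz2 was 29.4, 25 and 22.2 in the 3 normal chow libraries and 64.6, 61.3 and 73.5 in the 3 high-fat diet libraries. The groups did not overlap, and the lowest high-fat value was above 2 times the highest chow value. The log2 difference was 1.35 ± 0.35 (SE), the largest relative to its error at that time among the 32 genes (limma adjusted p = 0.576). H2-Aa was 11, 11.9 and 11.8 under normal chow and 20.7, 40.3 and 51.7 under high-fat diet, a difference of 1.52 ± 0.51 (limma adjusted p = 0.813). The chow libraries were close together, and the high-fat libraries spread over more than a 2-fold range above them. H2-Ab1 was 9.98, 8.66 and 6.91 against 15.2, 26.3 and 37.4 (1.45 ± 0.46, limma adjusted p = 0.789). Cd74 was 20.7, 24.4 and 18.1 against 32.1, 63.6 and 85.5 (1.38 ± 0.50, limma adjusted p = 0.93). In all 3 class II genes replicate 3 of the high-fat group was the highest and replicate 1 the lowest. In all, 7 of 32 genes had every high-fat diet library above every chow library at ZT 0, against 3.15% of all rows, and 0 had every one below, against 3.22%. The others were Ctsd, Mrc1 and Cd163, with differences of 0.14, 0.54 and 0.38.

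Fibroblast transcripts moved with these genes at ZT 0. Dcn, the proteoglycan decorin of fibroblasts, was 18.5, 21.9 and 21.9 under normal chow and 32.8, 46.7 and 72.2 under high-fat diet in replicates 1, 2 and 3, and the order of these 3 high-fat libraries is that of the class II genes. The summed level of the 8 meningeal and fibroblast genes was 89.4 to 140 under normal chow and 169 to 452 under high-fat diet, and 8 of 8 were higher. For the homeostatic receptors the summed level was 170 to 233 and 152 to 238, and 3 of 8 differences were positive. With the mean of the meningeal genes as a covariate, an alternative added after the data were seen, the differences at ZT 0 were -0.02 for Cd74, 0.10 for H2-Aa, 0.20 for H2-Ab1 and 0.50 for Lyz2, none at an unadjusted p under 0.05. The covariate itself differed between the diets at ZT 0, so this fit cannot tell a difference with diet from one with the meningeal genes. Their part in the differences at ZT 0 was not tested. Without high-fat diet ZT 0 replicate 3, which is also rich in Alb, Lyz2 had 1.28 and H2-Aa 1.25, both still at an unadjusted p under 0.05. Cd74 then had 1.08 and Mrc1 0.23, neither at an unadjusted p under 0.05.

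At ZT 16 all 8 homeostatic receptors had positive differences, 2 of them (Siglech and Fcrls) at an unadjusted p under 0.05 and 0 called. Siglech was 12.4, 9.05 and 9.86 in the normal chow libraries and 13.6, 15.1 and 18.4 in the high-fat diet libraries. The groups did not overlap, and the difference was 0.55 ± 0.15 (limma adjusted p = 0.284). Fcrls was 25.2, 16.8 and 20.5 against 26.2, 27.4 and 30.5, also without overlap (0.42 ± 0.15, limma adjusted p = 0.311). Ctss was 139, 103 and 120 against 145, 159 and 172 (0.40 ± 0.17, limma adjusted p = 0.386), and Tyrobp was 97.4, 69.9 and 82.1 against 98.6, 102 and 139 (0.43 ± 0.21, limma adjusted p = 0.45). Aif1 was 15.1, 9.55 and 12.1 against 14.1, 16.6 and 21.3, where the groups overlapped (0.47 ± 0.19, limma adjusted p = 0.362). Normal chow replicate 2 was the lowest and high-fat diet replicate 3 the highest in each of these 5 genes. The homeostatic receptors had a median difference of 0.28, and the class II genes had 0 of 3 positive with a median of -0.62 and none at an unadjusted p under 0.05; the difference between these groups of genes was not tested. Without overlap, 8 of 32 genes were higher and 1 was lower, against 5.05% and 12.3% of all rows; besides the 4 above these were Ptprc, Cd53, Itgam and Mpeg1, and the lower one was Ctsd.

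Results at ZT 16 leaned on these libraries. High-fat diet ZT 16 replicate 3 is rich in the striatal transcript Adora2a, and without it Siglech had 0.43 and Fcrls 0.36, both at an unadjusted p under 0.05, while Ctss (0.34), Tyrobp (0.28) and Aif1 (0.32) were no longer under it. Without normal chow ZT 16 replicate 2, Siglech had 0.46 at an unadjusted p under 0.05, and Fcrls (0.28), Ctss (0.29), Tyrobp (0.32) and Aif1 (0.32) were over it. Astrocyte genes were higher at the same time in 8 of 8, with a median of 0.31, and neuronal genes had a median of -0.22. The meningeal genes were lower in 7 of 8 at ZT 16, and with their mean as a covariate Siglech had 0.63 with a limma adjusted p of 0.0435. The share of all rows called with that covariate was not computed. The part of these other cells in the differences at ZT 16 was not tested.

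At ZT 4, ZT 8 and ZT 20 few genes had an unadjusted p under 0.05. Their share of the 32 genes was 6.25% at ZT 4, against 1.5% of all rows. It was 12.5% at ZT 8, against 16.1%, and 3.12% at ZT 20, against 3.99%, so at these 2 times it was under that of all rows. At ZT 4, Cd14 was 1.93, 1.87 and 2.03 under normal chow and 2.12, 3.28 and 4.17 under high-fat diet, without overlap (0.48 ± 0.20, limma adjusted p = 1). It was 1 of 2 tested genes without overlap at that time, both higher, against 4.61% of all rows higher and 2.72% lower. Lyz2 was 15.2, 16.1 and 22.6 against 21.4, 25.8 and 58.5, with overlap (0.82 ± 0.35, limma adjusted p = 1). Replicate 3 of the high-fat group was the highest in both genes, and it was also the highest in Dcn, at 69.9 against 16.96 and 29.7 in the other high-fat libraries and 14.1 to 20.04 under normal chow. Without it Lyz2 had 0.39 and Cd14 0.31, and with the meningeal covariate they had 0.30 and 0.26, none of these at an unadjusted p under 0.05. The meningeal and fibroblast genes were higher in 8 of 8 at ZT 4, and their part was not tested. At ZT 8, Csf1r was 50.4, 41.7 and 59.9 against 63.0, 83.5 and 57.4 (0.41 ± 0.17, limma adjusted p = 0.277), with overlap. Ctsz (0.24), Ptprc (0.37) and Ctsd (0.14) also had unadjusted p-values under 0.05 at ZT 8. Ctsz and Ctsd were the 2 genes without overlap, both higher, against 14% of all rows higher and 3.16% lower. All 4 lost this without high-fat diet ZT 8 replicate 2, where their differences were 0.10 to 0.27, and on size factors by the median of ratios, where Ctsd had 0.0035. At ZT 20, Ctsd was 512, 527 and 500 against 568, 533 and 619, without overlap (0.16 ± 0.062, limma adjusted p = 0.772). There 4 genes were higher without overlap and 2 lower, against 3.17% and 5.19% of all rows.

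At ZT 12 the signs of the list were near those of all rows. Of 32 genes 12 (37.5%) were higher under high-fat diet, against 41.2% of all rows. An unadjusted p under 0.05 was found for 0 of 32, against 0.975% of all rows. For 5 genes (15.6%) every high-fat diet library lay below every chow library (Lyz2, H2-Aa, Mrc1, Cd53 and P2ry13), against 3.07% of all rows. None had every one above, against 1.47%. Lyz2 was 39.3, 33.3 and 39.2 under normal chow and 21.9, 30.2 and 31.4 under high-fat diet (-0.42 ± 0.35, limma adjusted p = 1). H2-Aa was 18.3, 14.3 and 19.9 against 6.96, 10.1 and 12.6 (-0.79 ± 0.51, limma adjusted p = 1). The summed level of the meningeal and fibroblast genes was 193 to 259 under normal chow and 89.1 to 162 under high-fat diet, again in the direction of the class II genes.

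**Figure D3:**
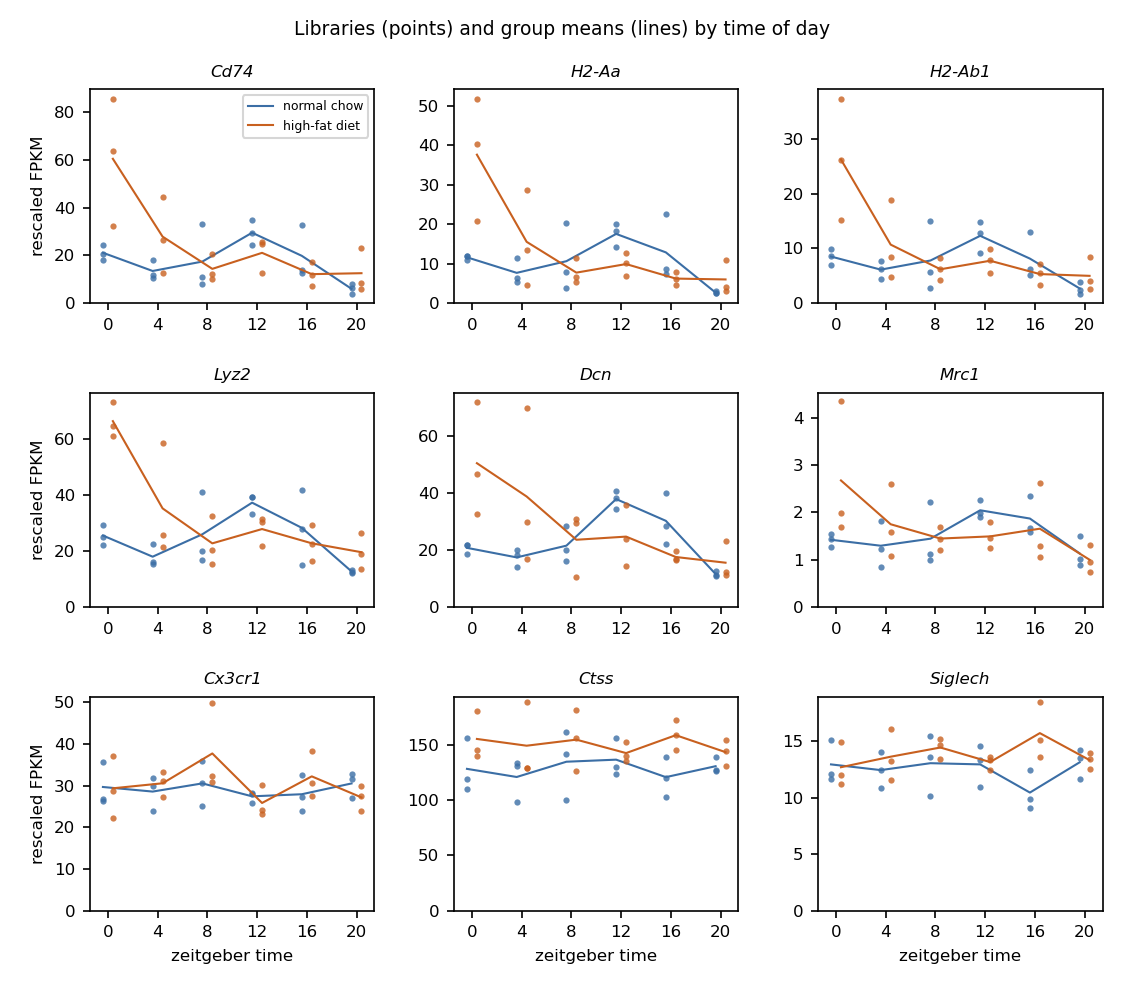
Level of 8 of the genes and of the fibroblast transcript Dcn (rescaled FPKM) by zeitgeber time, with a point per library and lines through the means of 3 libraries, normal chow in blue and high-fat diet in orange. Cd74, H2-Aa, H2-Ab1 and Lyz2 are high under high-fat diet at ZT 0 and under normal chow at ZT 12, as Dcn is, while Cx3cr1 has no such shape.

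**Figure D4:**
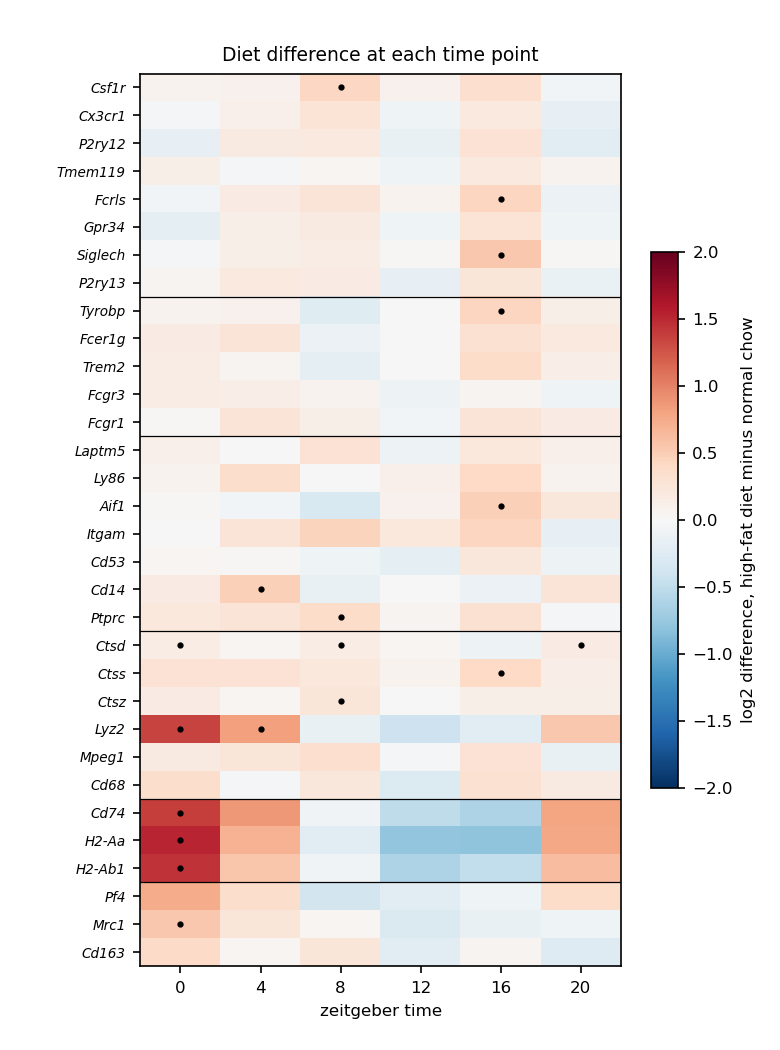
Diet difference of the 32 genes tested (rows, by role) at each zeitgeber time (columns), as a log2 difference from blue (lower under high-fat diet) to red (higher), with dots at an unadjusted p under 0.05. The deepest reds are those of the MHC class II genes and Lyz2 at ZT 0, from 1.35 to 1.52, and the 18 dots include 6 at ZT 0 and 5 at ZT 16.

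Since the libraries cover a day, each gene was tested for a rhythm with a period of 24 h. Under normal chow 0 of 32 genes were called, against 0.845% of 15150 rows, and 2 had an unadjusted p under 0.05, against 18.2% of rows, a share below that of all rows. Aif1 had a fitted peak-to-trough ratio of 1.38 with its peak at ZT 5.51 (limma p = 0.00746, adjusted p = 0.147, n = 18). Cd163 had a ratio of 1.56 with its peak at ZT 14.7 (limma p = 0.00793, adjusted p = 0.15, n = 18). Its group means followed the night, with values of 1.36, 1.45 and 2.35 at ZT 12 against 0.922, 0.401 and 0.854 at ZT 4. The 2.35 is that of the library rich in Adora2a, without which Cd163 was under the mean of 1 on chow and was not tested. Under high-fat diet 0 of 32 were called, against 0.0728% of 15106 rows, and 1 had an unadjusted p under 0.05, against 8.64%. That gene was H2-Ab1, with a ratio of 2.55 and a peak at ZT 1.87 (limma p = 0.0491, adjusted p = 0.574, n = 18). Over both diets 0 were called, against 2.18% of rows. Cd163 was the only one of the 32 with an unadjusted p under 0.05, against 13.1% of rows, at a ratio of 1.38 and a peak at ZT 14.5 (limma p = 0.00837, adjusted p = 0.169, n = 36). With the meningeal genes as a covariate its limma adjusted p was 0.014, and the share of all rows called in that fit was not computed.

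Whether the rhythm differs with diet was tested directly. Of 32 genes 0 were called, against 0% of rows, and 5 had an unadjusted p under 0.05 (15.6%), against 13.2% of rows, so the share is near that of all genes. These were Lyz2 (limma p = 0.00965), H2-Aa (limma p = 0.0225), Aif1 (limma p = 0.0284), H2-Ab1 (limma p = 0.0303) and Cd74 (limma p = 0.0398, n = 36 for each), with adjusted p-values of 0.357 to 0.366. For Lyz2 the fitted peak lay at ZT 11.1 under normal chow and at ZT 1.56 under high-fat diet. For the 3 class II genes it lay at ZT 10.03 to 10.34 and at ZT 1.87 to 2.25. None of these 4 genes passed the rhythm test under normal chow (limma p-values of 0.0615 to 0.185), so the peak times describe fitted curves. Of the 8 meningeal and fibroblast genes 7 had an unadjusted p under 0.05 for the same difference. With their mean as a covariate the limma p-values of Lyz2 and the class II genes were 0.249 to 0.422, and that of Aif1 was 0.006. Since the covariate carries a difference in rhythm of its own, this fit cannot tell that difference from one of the genes themselves. The part of the meningeal genes was not tested.

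Levels across libraries were set against Dcn, against Cx3cr1 and against the haemoglobin transcript Hba-a1, as log2(value + 1) over the 36 libraries, in 98 relations of which all p-values were adjusted together. Libraries of 1 group share a diet and time, so they are not a sample of 1 kind. H2-Aa had a Pearson r of 0.906 with Dcn and a Spearman rho of 0.892 (permutation p = 1e-05 for both, the smallest that 100000 permutations can give, adjusted p = 7e-05). Without the 2 libraries with the most extreme Dcn, r was 0.881, and within the diets it was 0.911 (normal chow) and 0.906 (high-fat diet). Cd74, H2-Ab1 and Lyz2 had r of 0.897, 0.891 and 0.887. Mrc1 had 0.756, Lyve1 0.609, Pf4 0.586 and Cd163 0.451. With the group means removed, r with Dcn was 0.804 to 0.820 for the class II genes and 0.778 for Lyz2. For the 8 homeostatic receptors r with Dcn was 0.0331 to 0.222 over the libraries and 0.289 to 0.475 with the group means removed, so their relation to Dcn depends on whether groups are centred. With the group means removed, Fcgr3 had 0.642 with Dcn, Ly86 0.625 and Cd53 0.621, while Tyrobp had 0.194 and Aif1 0.231. The order differed against Cx3cr1, where the other 7 homeostatic receptors had a median r of 0.781, with a range of 0.346 to 0.875, and the 3 class II genes had 0.104 to 0.128. Low values were not particular to class II genes, as Tyrobp had 0.0516, Ctsd 0.0476 and Aif1 0.136, while Mpeg1 had 0.846 and Laptm5 0.833. With the group means removed the class II genes had 0.452 to 0.487 against Cx3cr1. Against Hba-a1 the class II genes had 0.407 to 0.440, and 0.0632 to 0.105 with the group means removed, and the homeostatic receptors -0.31 to 0.256.

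**Figure D5:**
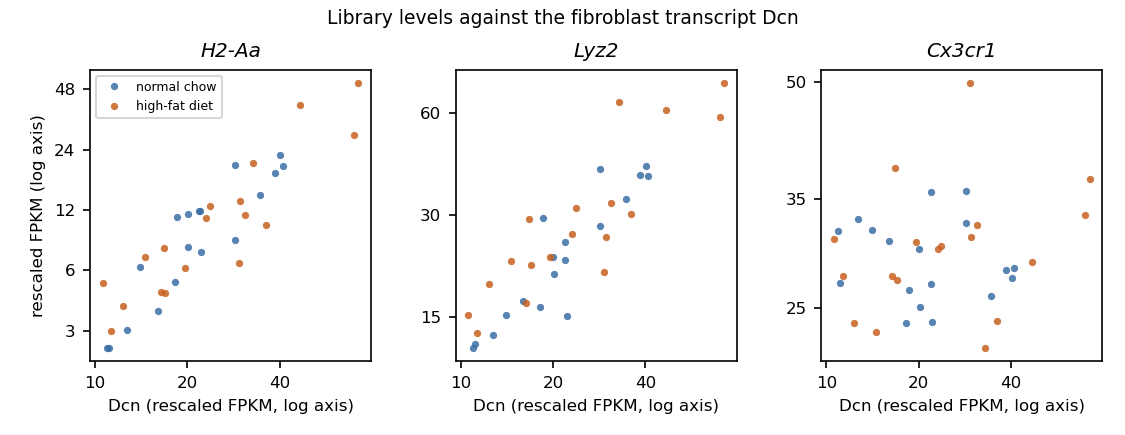
Level of H2-Aa, Lyz2 and Cx3cr1 against that of Dcn in each of the 36 libraries (rescaled FPKM, both axes log), normal chow in blue and high-fat diet in orange. Points of H2-Aa (r = 0.906) and Lyz2 (r = 0.887) climb with Dcn in both diets, and those of Cx3cr1 have r = 0.166 over the libraries and 0.475 with the group means removed.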

How the data were processed

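RNA was measured in 36 libraries of an SCN-enriched region, dissected fresh, extracted with the RNeasy Micro Kit and prepared by the TruSeq stranded mRNA protocol, per the labels' protocols. The authors deposited FPKM values, 1 table per diet. Headers give no unit, and FPKM is inferred from the values and the naming of Cufflinks. Trimmomatic, TopHat, Cufflinks and the builds mm10 and GRCm38 are named, per the submitters' processing notes, and their versions are not given in the sources used here. FPKM give no number of reads, so no counting interval was computed.

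Each library was rescaled to sum to 1000000 and transformed as log2(value + 1), which understates changes of low genes. Rows with a mean of at least 1 were tested in limma 3.58.1 (R 4.3.3) with a mean-variance trend. The diet test over the whole day had the 6 time points as a factor, and the tests at single times were contrasts in a model of 12 group means. Rhythms were tested by moderated F tests of a cosine and a sine term of 24 h. All tests of a direction are two-sided, with Benjamini-Hochberg adjustment over all rows. The fits were tested on simulated data. Permutation p-values of correlations used 100000 permutations. Promoters come from RefSeq on GRCm38.p6. The 33 genes, their role groups and the 16 other lists were chosen with earlier results of these data known. Genes described in full are those with an unadjusted p under 0.05 in a test and, in each role group, the gene with the highest mean and the one with the largest diet difference. Alternatives were other scalings, the deposited values, a pseudocount of 0.1, no filter, a replicate block, fits without the Alb-rich libraries and without each library in turn. Fits without the Adora2a-rich libraries, with the meningeal genes or the homeostatic receptors as a covariate, and with 5 diet by time point terms were added after the data were seen.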

Additional observations from a re-analysis of the deposited data

Results flagged for a closer look

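Some genes had a diet difference at 2 time points in opposite directions, with every high-fat diet library above every normal chow library at 1 of them and below at the other. The difference between the 2 diet differences was tested in limma, and no adjusted p was under 0.05 (0.211 to 1). Values below are the diet difference at the first time named less that at the second, on the log2(value + 1) scale.

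Lyz2, the myeloid lysozyme, was higher at ZT 0 and lower at ZT 12, a difference of 1.77 (limma adjusted p = 0.858), and higher at ZT 20 and lower at ZT 12, with ZT 12 less ZT 20 at -0.96 (limma adjusted p = 1). H2-Aa, the class II alpha chain, was higher at ZT 0 and lower at ZT 12, a difference of 2.31 (limma adjusted p = 0.858), and Mrc1, the mannose receptor, likewise at 0.83 (limma adjusted p = 1). The meningeal and fibroblast genes were also higher at ZT 0, in 8 of 8, and lower at ZT 12, in 7 of 8, and their part in these differences was not tested.

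Ctsd, cathepsin D, was lower at ZT 16 and higher at ZT 0, ZT 8 and ZT 20. ZT 0 less ZT 16 was 0.24 (limma adjusted p = 0.368), ZT 8 less ZT 16 was 0.24 (limma adjusted p = 0.211), and ZT 16 less ZT 20 was -0.25 (limma adjusted p = 0.764). At ZT 8 the difference of Ctsd was 0.14 where the median of all rows was 0.12, and it was 0.0035 with median-of-ratios size factors and -0.0082 on the values as deposited, so its direction at ZT 8 depends on the scaling. Cd53, a tetraspanin, was lower at ZT 12 and higher at ZT 16, with ZT 12 less ZT 16 at -0.41 (limma adjusted p = 0.641). Itgam, CD11b, was higher at ZT 16 and lower at ZT 20, a difference of 0.60 (limma adjusted p = 0.764).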

How the results depend on the processing

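Over 80 results, 3537 values were recomputed: 3444 were taken as the same, 71 as moved, 2 passed the threshold newly and 20 reversed. Values of single genes were judged by their direction and their side of the threshold, and fitted rhythm ratios, which have no direction, by the threshold alone. As no gene was called in the main fits, a value could change much in size and be taken as the same. H2-Aa at ZT 0 was such a value, at 1.52 in the main fit and 0.10 with the meningeal covariate. Medians were judged by the spread between replicates, an SD of 0.21 that exceeds most of the medians. Counts of genes or rows were judged by their relative change. The number taken as the same thus does not measure how firm the sizes are. The values taken as moved were all counts, save 1 for the median difference at ZT 0. No gene of the 33 was called in any fit but those with the meningeal covariate. The cause of the shifts below was not tested.

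The count of 8 genes at an unadjusted p under 0.05 between diets was 5 with median-of-ratios size factors, 3 on the deposited values, 4 without the Alb-rich libraries, 4 without the Adora2a-rich libraries and 4 with the meningeal covariate. It was 4 to 10 with 1 library left out. Summed over time points the count of 18 was 10 on the deposited values. For the rhythm under normal chow, the count of 2 was 1 on the deposited values, 4 without the Alb-rich libraries, 1 without the Adora2a-rich libraries and 5 with the meningeal covariate, and 1 to 5 with 1 library left out. Under high-fat diet the count of 1 was 0 with size factors, with a pseudocount of 0.1 and with no filter, 4 on the deposited values, and 0 to 4 with 1 library left out. For the difference in rhythm the count of 5 was 2 without the Alb-rich libraries, 3 without the Adora2a-rich libraries, 1 with the meningeal covariate, and 2 to 6 with 1 library left out (2 without high-fat diet ZT 0 replicate 2 or 3, and 3 without normal chow ZT 12 replicate 1 or 3). Over both diets the count of 1 was 3 with no filter and 1 to 2 with 1 library left out.

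With the meningeal covariate 1 gene was called at a time point (Siglech at ZT 16) and 1 for a rhythm over both diets (Cd163), and the median at ZT 0 was -0.13. The share of all rows called in these covariate tests was not computed, so whether these genes stand out is not known. Small diet differences reversed with this covariate to -0.0049 for P2ry12, -0.0045 for Fcgr3, -0.032 for Mrc1 and -0.0088 for Cd163. Larger ones reversed too, that of H2-Aa from 0.20 to -0.031 and that of Cd74 at ZT 0 from 1.38 to -0.018. With the homeostatic covariate Fcgr3 had -0.032, Mrc1 -0.027 and Cd163 -0.027. Without the Alb-rich libraries Mrc1 had -0.0036 and Pf4 -0.0049, without the Adora2a-rich libraries P2ry12 had -0.0069, and Ctsd at ZT 8 had -0.0082 on the deposited values. With 1 library left out P2ry12 ran from -0.030 to 0.046, Cd53 from -0.030 to 0.010 and Mrc1 from -0.012 to 0.077.

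Libraries with the same replicate number deviated from their group means with a correlation of -0.28 to 0.32 over 18 pairs, 9 of them over 0.1, so the number was not taken as a pairing. As a hint from the data and not the design, 12 of 18 matched best with their own number, and the 3 pairs at ZT 12 had 0.29 to 0.32. With the number as a replicate block the rows called between diets were 1 in place of 2, the genes at an unadjusted p under 0.05 were 6 in place of 8 between diets, and the count for the rhythm under high-fat diet was 0. The depth in reads is unknown, and values near 1, such as those of Cd163 and Mrc1, are the least certain.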

Other observations

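Over all time points, other genes of border macrophages and of class II presentation had diet differences in the direction of the genes above. Of 10 further border macrophage genes 5 were abundant enough to test, and 5 of 5 were positive over all time points, with a median of 0.12 on the log2(value + 1) scale. At ZT 0 their median was 0.51 with 5 of 5 positive, and at ZT 12 it was -0.31 with 0 of 5 positive, as for Mrc1. The 8 meningeal and fibroblast genes had a median of 1.23 with 8 of 8 positive at ZT 0 and of -0.69 with 1 of 8 positive at ZT 12, and their part was not tested. Maf, a transcription factor and the most abundant of them at 6.11, had 0.07 over all time points. Of 6 further class II genes 5 were tested. At ZT 0, 5 of 5 were positive with a median of 0.31, and at ZT 12, 1 of 5 with a median of -0.03. They did not follow the class II genes above at ZT 8 and ZT 16, where those had 0 of 3 positive. The further genes had 4 of 5 positive at ZT 8 (median 0.06) and 3 of 5 at ZT 16 (median 0.05). Over all time points 5 of 5 were positive, with a median of 0.14. H2-DMb1, which helps load peptide onto class II molecules, averaged 3.33 ± 0.692 (SD, n = 18) on chow and 4.15 ± 1.45 (SD, n = 18) on the high-fat diet, a difference of 0.22 (limma p = 0.0142, n = 18 per diet, adjusted p = 1).

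Lists of other cells gave mixed signs over all time points. Choroid plexus genes were positive in 3 of 6, liver genes in 5 of 7 and genes of SCN neurons in 5 of 7. Among 8 astrocyte genes Gfap, the filament protein of reactive astrocytes, had 0.29 (limma p = 0.0347, n = 18 per diet, adjusted p = 1), and it averaged 197 ± 70.7 (SD, n = 18) and 243 ± 107 (SD, n = 18).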
